A study of Drosophila melanogaster with 3 samples.

Results

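The genes of the mesodermal fibroblast growth factor (FGF) pathway of Drosophila melanogaster, stumps, htl, ths and pyr, were examined for binding of dmrt11E, a transcription factor with a DM-type DNA-binding domain. The 4 genes were chosen by name, with earlier results of these data known, out of 13968 annotated protein-coding genes. A peak was assigned to a gene when its summit lay in the gene body or within 10 kb of it. Of 6706 reproducible peaks, 18 met this rule, together with 74 of 30000 peaks of the pooled list. The data were chromatin immunoprecipitation and sequencing (ChIP-seq) of whole embryos of pooled sex aged 2 to 10 h. There was 1 group, a transgenic line with a stable insertion of dmrt11E carrying GFP on its C-terminal end, precipitated with anti-GFP, in 3 biological replicates. No other genotype, age or treatment was included, so the comparisons are between genes, sites and replicates.

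FGF signalling in the early fly mesoderm runs through a short chain of dedicated proteins. The ligands Pyramus (pyr) and Thisbe (ths) bind the receptor tyrosine kinase Heartless (htl), and the cytoplasmic adaptor Stumps (stumps, also called Downstream of FGF) links the activated receptor to the RAS/MAPK cascade. The pathway is known for the spreading of mesoderm cells over the ectoderm after gastrulation and for the later formation of heart and dorsal muscle precursors. The ligand genes neighbour each other on chromosome arm 2R, and the adaptor and receptor genes lie apart on 3R.

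Peaks were called by the authors, per replicate and on the pooled replicates, against the same control. Each of these lists holds 30000 peaks. The authors' set thresholded on the irreproducible discovery rate (IDR) supplied the IDR peaks below, which were the 6706 of highest signal in the pooled list. Signal, a score of the authors, is scaled differently in each list, so sites were compared by rank within a list, with rank 1 the strongest. The lists carry no read depth. An untagged control immunoprecipitation was not analysed here, and recovery of open chromatin cannot be told apart from binding. In whole embryos, strong binding in few cells and weak binding in many cannot be told apart either. Whether the replicates came from separate embryo collections is not stated in the labels, so a spread covers these 3 samples only, and with 1 group no test between conditions was possible.

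All 4 genes held IDR peaks, but their strongest peaks differed widely in rank. An IDR summit lay in the gene body or within 10 kb of 68.9% of all protein-coding genes, so the presence of a peak is near what any gene shows. The adaptor gene stumps had 7 IDR summits, the receptor gene htl 1, and the ligand genes ths and pyr 8 and 2. The strongest IDR peak ranked 78 at stumps, 783 at htl, 1692 at ths and 5785 at pyr. The best rank of any summit at stumps was 141, 88 and 61 in replicates 1, 2 and 3. At htl the best ranks were 1093, 1148 and 498, at ths 1384, 2006 and 1509, and at pyr 5420, 6954 and 4408. The order stumps, htl, ths, pyr held in each replicate, and the ranges of the replicates did not overlap between neighbours in this order.

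**Figure D1:**
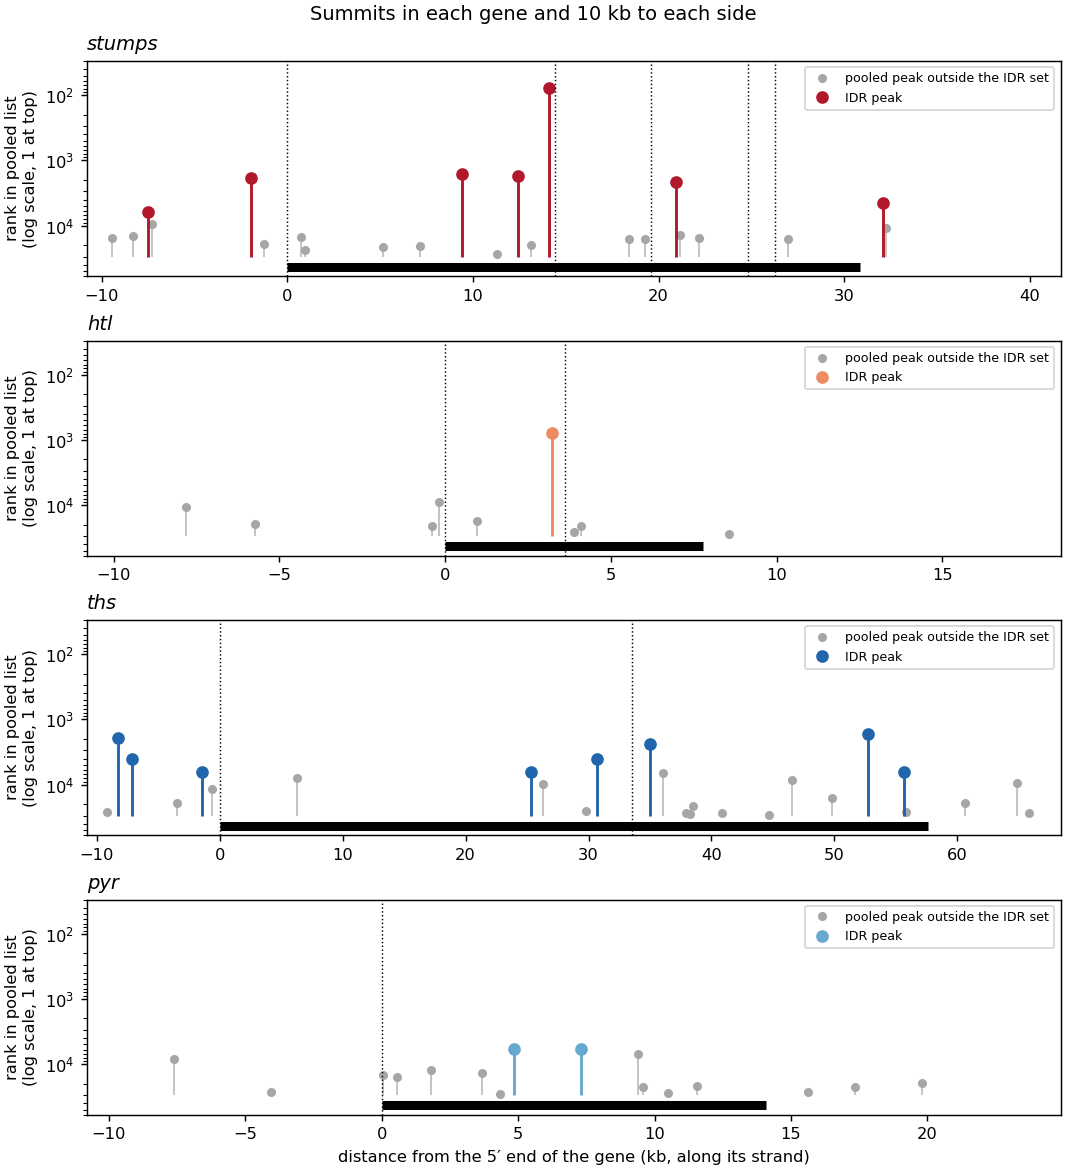
Positions of pooled summits at the 4 genes, in kb from the gene's 5′ end along its strand, against rank in the pooled list on a log axis with rank 1 at the top. Coloured points are IDR peaks, grey points weaker pooled peaks, black bars gene bodies and dotted lines annotated transcription starts. The highest point of stumps (rank 78) and the point of htl (rank 783) stand just upstream of an internal start, while the IDR peaks of ths and pyr lie away from the starts.

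At stumps (FBgn0020299, 3R, 14577217 to 14608079, plus strand, dm6), the strongest site stood at an internal promoter. This peak, site 5 of 7 counted 5′ to 3′ along the gene, spanned 14591072 to 14591555. Its summit lay 312 bp upstream of the transcription start site (TSS) of the transcript stumps-RE and within an intron of the longest transcript, stumps-RC. Its pooled signal was 2871. Its signal was 536, 944 and 1412 in replicates 1, 2 and 3, each on that list's own scale, where the list medians were 28.1, 25.4 and 30.7. The summits in the 3 replicates and the pooled list fell within 46 bp of each other. The starts of the other stumps transcripts carried no IDR summit within 500 bp. At the start of stumps-RB the best pooled peak ranked 15946, and the starts of stumps-RC, stumps-RD and stumps-RF had no pooled summit within 500 bp.

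The stumps gene body held 3 further IDR peaks, all of middling rank and all high in every replicate. Site 3, 4995 bp upstream of the stumps-RE start, had a pooled rank of 1648 and ranked 2096, 1754 and 1397 in replicates 1, 2 and 3. Site 4, 1984 bp upstream of the same start, ranked 1716, with 2003, 1440 and 1863 in the replicates. Site 6 ranked 2130, with 3073, 2013 and 1910, and lay 1355 bp downstream of the stumps-RB start. It was also 364 bp downstream of the start of lncRNA:CR46153, a noncoding gene on the opposite strand inside stumps. Successive summits from site 3 to site 6 were 3011, 1672 and 6845 bp apart.

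The other 3 IDR summits in the stumps window lay outside the gene, and each was nearer to the start of another gene. Site 2, 1971 bp before the stumps gene, was in an intron of CG7987, 641 bp downstream of a CG7987 start. It ranked 1893, with 3544, 1906 and 1532 in replicates 1, 2 and 3. Site 1, 7488 bp before stumps, lay 85 bp upstream of Cys, which encodes a cystatin-like protease inhibitor, and ranked 6095. Site 7, 1210 bp past the end of stumps, lay 353 bp upstream of CG14853 and ranked 4453. It was matched in replicates 2 and 3, at ranks 4397 and 3153, and had no summit within 200 bp in replicate 1. Replicate 1 did list a peak that overlaps this site, at 14608901 to 14609264 with its summit at 14609083, at rank 4584. Counting only summits whose nearest start belongs to stumps leaves 3 of the 7, sites 3, 4 and 5.

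The sequences at 4 of these sites on 3R are shown because they carry the motif matches described here, or, for site 3 of stumps, show a site of similar rank to site 2 with none. Each is the plus strand of dm6 (RefSeq), 101 bp centred on the IDR summit, with capitals for matches to the searched motifs.
stumps site 5, chr3R:14591258-14591358: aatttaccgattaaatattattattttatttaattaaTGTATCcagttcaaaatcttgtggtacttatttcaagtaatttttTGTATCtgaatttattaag
stumps site 2, chr3R:14575196-14575296: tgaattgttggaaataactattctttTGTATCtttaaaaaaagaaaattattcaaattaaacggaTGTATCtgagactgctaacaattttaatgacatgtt
stumps site 3, chr3R:14586575-14586675: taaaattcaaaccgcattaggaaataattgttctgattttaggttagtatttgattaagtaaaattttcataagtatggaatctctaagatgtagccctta
htl site 1, chr3R:18049702-18049802: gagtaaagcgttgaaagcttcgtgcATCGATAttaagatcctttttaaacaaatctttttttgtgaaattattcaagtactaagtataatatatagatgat

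The letters GATACA, the outer part of sites bound by DM-domain proteins, occurred in reverse complement as TGTATC in 2 copies at the strongest stumps site and in 2 copies at site 2. At the strongest site the centres of the matches were 10 and 35 bp from the summit, and at site 2 they were 21 and 18 bp away. All 4 copies had the same orientation. At least 1 copy was present at 2 of the 18 sites, against 5.25% of all 6706 IDR windows and 4.28% of the windows centred 500 bp to either side. Within 100 bp of the summit it was again present at 2 of the 18 sites, against 10.9% of IDR windows, so these sites were near the share of the whole set. At least 2 copies were present at the same 2 sites, against 0.358% of all IDR windows (24 of 6706), a count that was chosen after the matches at stumps were seen. The central letters of DM-domain sites, ACATTGT, were found at 0 of the 18 sites, against 1.95% of IDR windows and 1.36% of flanks. Within 100 bp they were found at 1 of the 18, against 3.89% of IDR windows.

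The receptor gene htl (FBgn0010389, 3R, 18045216 to 18052984, minus strand) had a single IDR peak, and it too stood at an internal promoter. The peak spanned 18049573 to 18049959. Its summit lay 386 bp upstream of the start shared by htl-RA and htl-RC, inside the intron of the longer transcript htl-RB. Its pooled signal was 997 at rank 783, and it ranked 1093, 1148 and 498 in replicates 1, 2 and 3. The sequence within 50 bp of this summit held ATCGATA, part of the element bound by the promoter factor DREF, 22 bp from the summit. That motif was present at 1 of the 18 sites, against 3.13% of IDR windows and 1.11% of flanks.

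The upstream promoter of htl, which starts htl-RB, had a weaker peak that did not enter the IDR set. Its pooled summit, 172 bp upstream of the start, ranked 9132. The replicates placed their best summit at this start at ranks 8215, 6396 and 21418, a wide range in which only replicate 2 was above 6706. No other annotated gene overlapped the htl window, and the nearest IDR summit outside it was 23804 bp from the gene. Replicates 1 and 3 listed 2 summits each at the strong htl site, the weaker at ranks 3416 and 6358. Each replicate therefore had 2 summits in its 6706 strongest at htl.

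The ligand gene ths (FBgn0033652, 2R, 11756817 to 11814424, plus strand) had the most IDR summits of the 4 genes, and none at a promoter. Of the 8, 3 lay upstream of the gene, 4 in introns and 1 in the 3′ UTR. The strongest, site 7 along the gene, spanned 11809400 to 11809675 in an intron, 19161 bp downstream of the ths-RA start and 15818 bp from the nearer start of CG13192. Its pooled rank was 1692, and replicates 1, 2 and 3 ranked it 1384, 2006 and 1801. The next was site 1, 8292 bp upstream of the gene, at rank 1935 and at 2530, 2545 and 1509 in the replicates. Site 6, 1431 bp downstream of the ths-RA start, ranked 2413, with 2370, 2028 and 2950. Site 7 was above site 6 in each replicate and their ranges did not overlap, whereas the range of site 1 overlapped both.

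The remaining ths sites were weaker and less even. Site 5, in an intron 2856 bp upstream of the ths-RA start, ranked 4000, with 3575, 5055 and 3925 in replicates 1, 2 and 3. Its nearest start was that of Ir48c, an ionotropic receptor gene nested in ths, at 1983 bp. Site 2, at rank 4051, ranked 13512, 3656 and 4845, and a stronger replicate 1 summit of rank 4390 lay within 200 bp of it. Sites 3, 4 and 8 ranked 6504, 6446 and 6372, close to the limit of the IDR set at 6706. Site 3 ranked 9759, 13433 and 4994 in the replicates, and site 4 ranked 8617, 4780 and 7721. Site 8, in the 3′ UTR, ranked 6659, 8156 and 6386. The nearest start to site 4 was that of CG42493, at 3617 bp, and to site 8 that of CG13192, at 12891 bp. Just outside the limit was a pooled summit 2495 bp downstream of the ths-RA start, at rank 6736, with 5819, 6733 and 10439 in the replicates. When a site had to be matched among the 6706 strongest peaks of each remaining replicate, the ths count was 5 when replicate 1 was left out, 5 when replicate 2 was and 4 when replicate 3 was. Neither ths start had a pooled summit within 500 bp, and the only replicate summit there, in replicate 3 at the ths-RA start, ranked 18316.

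The ligand gene pyr (FBgn0033649, 2R, 11712263 to 11726345, plus strand) had the lowest leading rank of the 4 genes, and its 2 IDR peaks, both in introns, varied between replicates. Site 1 spanned 11716920 to 11717323, 4859 bp downstream of the start, and ranked 5785, with 5798, 8354 and 4469 in replicates 1, 2 and 3. Site 2 spanned 11719375 to 11719778, 7314 bp downstream of the start, and ranked 5888, with 8860, 8483 and 4408. Replicate 3 placed both among its 6706 strongest, replicate 1 site 1 only, and replicate 2 neither. The count with a match among the strongest peaks of the remaining replicates was 0 when replicate 1 was left out, 1 when replicate 2 was and 0 when replicate 3 was. The best pyr summit of replicate 1, at rank 5420, was at another intronic site, 9388 bp downstream of the start. That site had a pooled rank of 7149 and ranked 7960 in replicate 2 and 12789 in replicate 3. The best of replicate 2, at rank 6954, was 38 bp downstream of the pyr start, where the pooled list ranked its summit 14815 and replicate 3 had none within 500 bp.

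The strongest peak of the ligand region belonged to neither window. The stretch of 30471 bp between the end of pyr and the start of ths held no annotated gene and 5 IDR summits, of which 3 are the upstream ths sites. The strongest of the 5, at 11742733 to 11743074, had a pooled rank of 530, and replicates 1, 2 and 3 ranked it 459, 456 and 710. It lay 16566 bp past the end of pyr and 13906 bp before the start of ths, just beyond the 10 kb limit. The other, at 11738623 to 11738811, ranked 4662, with 4662, 4502 and 4328, and was 12404 bp past pyr. The peak of rank 530 stood above every site in the ths and pyr windows in each replicate. With a window of 20 kb, ths had 11 IDR summits and pyr 4, and these 2 were counted for both genes. On the inner side of the limit the farthest IDR summits were 8292 bp from ths and 7488 bp from stumps.

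Across the 18 sites, those of better pooled rank were more often among the strongest peaks of every replicate. The pooled list is made from these replicates, so this trend is partly built in and was not tested. A replicate peak was matched when its summit lay within 100 bp of the IDR summit. Of the 18, 17 were matched by some peak in every replicate, and 10 by a peak among the 6706 strongest of every replicate. These 10 are 55.6% of the sites, beside 63.3% of all IDR peaks. Of the 9 sites of rank 3353 or better, 9 were matched among the strongest of every replicate, against 93.7% of all IDR peaks of these ranks. Of the 9 weaker sites, 1 was, site 5 of ths, against 32.8% of the weaker IDR peaks. By gene, 5 of 7 stumps sites, the htl site, 4 of 8 ths sites and 0 of 2 pyr sites were matched in this way. The count of a replicate's 6706 strongest summits in the window was 6.67 ± 0.58 at stumps, 2 ± 0 at htl, 7 ± 1 at ths and 1.67 ± 1.53 at pyr (SD, n = 3 replicates). These counts do not require the same sites in each replicate. At htl the weaker summit was at the htl-RB start in replicate 2, but at the strong site in replicates 1 and 3.

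**Figure D2:**
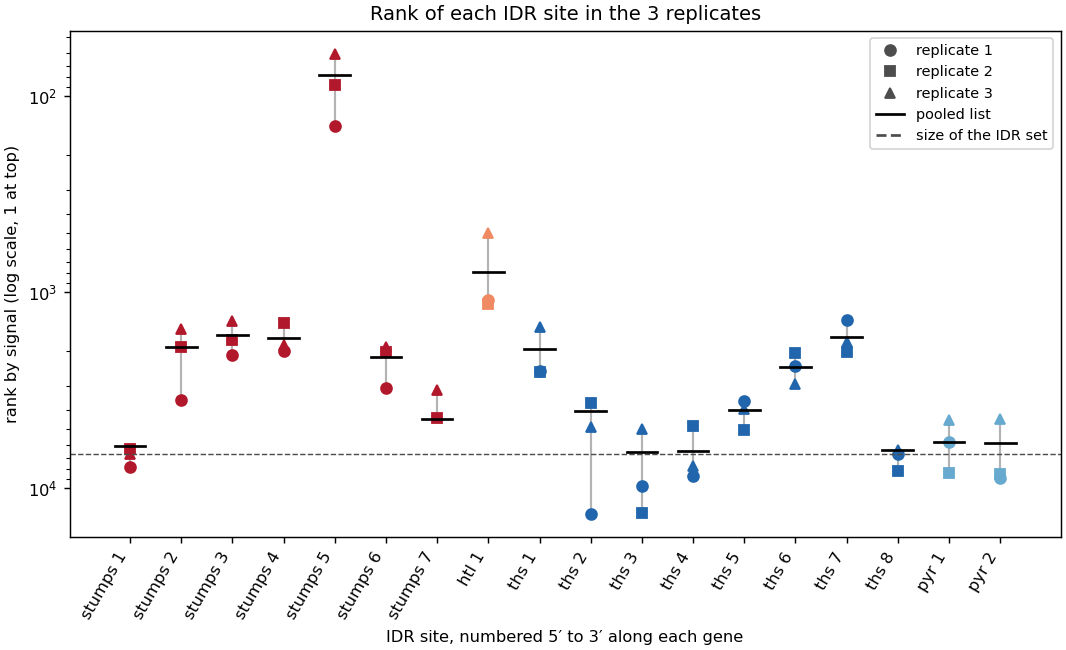
Rank of each of the 18 IDR sites in replicates 1, 2 and 3 (circle, square, triangle) and in the pooled list (black bar), on a log axis with rank 1 at the top. The dashed line marks rank 6706. Site 5 of stumps lies between 61 and 141 in every replicate, and the pyr sites straddle the line.

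Among all protein-coding genes, stumps and ths were in the upper tail of IDR summit counts and htl and pyr were not. At least 7 IDR summits were found for 1.93% of genes and at least 8 for 1.25%, whereas at least 2 were found for 44.3%. The median gene had 1. The window widens with the gene, and stumps and ths span 30863 and 57608 bp. Among the 1113 genes of between 0.5 and 2 times the length of stumps the median was 2 (quartiles 1 and 4), and 10.9% had at least 7. Among the 637 genes so close in length to ths the median was 2 (quartiles 1 and 5), and 12.6% had at least 8. Per 10 kb of window, the density was 1.38 IDR summits at stumps, 0.360 at htl, 1.03 at ths and 0.587 at pyr, beside a median of 0.468 over all genes. By this measure 15.2% of genes reached the stumps value, 64.9% that of htl, 22.7% that of ths and 41.7% that of pyr.

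A peak of rank 78 or better lay in the window of 2.26% of genes, and in that of 1.98% of genes of similar length. For the strongest peaks of htl, ths and pyr the corresponding shares of all genes were 17.0%, 32.3% and 65.5%. Among genes of similar length to each they were 19.8%, 42.2% and 77.3%. An IDR summit within 500 bp of its own start was found for stumps and htl and not for ths and pyr, beside 23.8% of all genes. This comparison is not matched for the number of distinct starts, which was 5 at stumps, 2 at htl, 2 at ths and 1 at pyr. An IDR summit in the gene body, found for all 4, was found for 13.0% of all genes. That share is not matched for gene length, and the 4 gene bodies span 7769 bp (htl) to 57608 bp (ths). A longer body has more room for a summit.

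**Figure D3:**
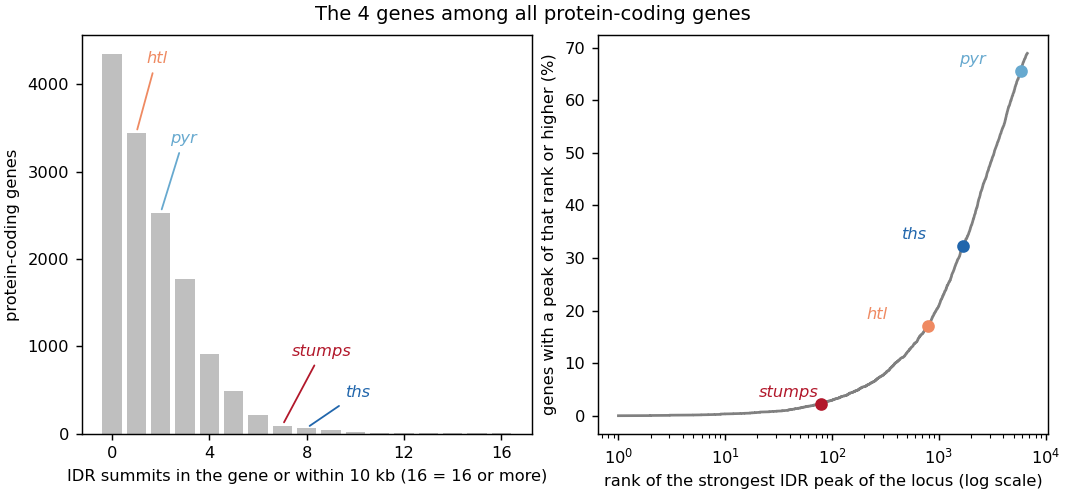
Left, the number of protein-coding genes (bars) by IDR summits in the gene body or within 10 kb. Right, the share of genes whose strongest IDR peak has a given rank or better, on a log axis. In the right panel stumps (rank 78) is at the low end of the curve, htl (rank 783) and ths (rank 1692) on its rise and pyr (rank 5785) near its end, while in the left panel ths (8 summits) and stumps (7 summits) are in the tail.

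The summits at these genes sat in short stretches poor in G and C. The 101 bp at the summit had a median of 26.7% G + C over the 18 sites, beside 29.7% over all IDR summits. The flanks 500 bp away had a median of 43.6% at the 18 sites and 44.1% over all IDR peaks. The summit was lower than the mean of its flanks at 17 of 18 sites, beside 84.6% of all IDR peaks. The strongest stumps site was the lowest of the 18 at 18.8%, with 52.5% in its flanks. The htl site had 26.7% with 45.5% in its flanks, and the strongest ths site 27.7% with 47.5%. The exception was the ths site in the 3′ UTR, with 50.5% at the summit and 29.7% in its flanks. The low-GC summits are therefore a property these sites share with the IDR set as a whole.

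**Figure D4:**
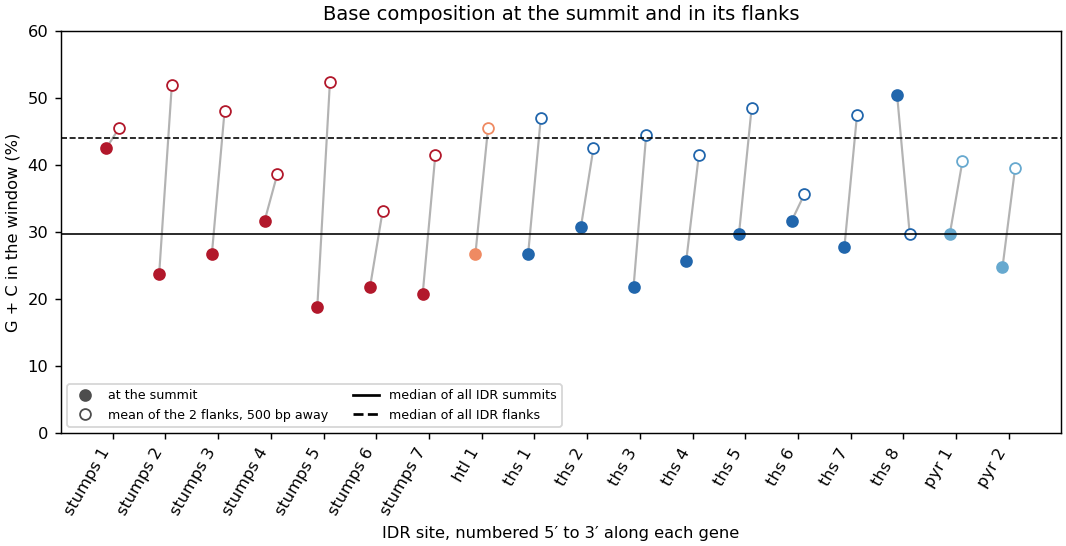
Share of G + C in 101 bp at each IDR summit (filled) and as the mean of the windows 500 bp to either side (open), with the medians over all IDR peaks as solid and dashed lines. The summit is below its flanks at every site but site 8 of ths.

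Short motifs of other embryonic regulators were absent from these windows. The letters searched on both strands were CAGGTAG of the early activator Zelda, GAGAGAG of GAGA factor, CACATG and CATATG of the mesoderm regulator Twist, CAGGTG of Snail, TCAAGTG of the heart regulator Tinman, GATAAG of GATA factors and GTCACAC of the promoter factor M1BP. Each was found within 50 bp of 0 of the 18 summits. Each was also uncommon in the whole IDR set, at 0.418%, 0.626%, 3.16%, 4.21%, 1.91%, 1.52%, 5.53% and 1.03% of windows in the order named. The absence of a match says only that these letters are not within 50 bp of the summit.

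The IDR peaks most like the leading peak of each gene in their 3 replicate ranks were the following. Likeness was the Euclidean distance between the log2 ranks in the 3 replicates, over all IDR peaks outside the 4 windows. The peak most like that of stumps lay at PIG-G (154 bp from a start), with ranks of 160, 94 and 62, followed by CG42353 and E23. For htl it was mgl, a lipoprotein receptor gene, with 1132, 1212 and 532, followed by CG7849 and gammaTub23C, which encodes a gamma tubulin. For ths it was an intronic peak whose nearest start was that of the T-box gene bi, with 1362, 1919 and 1733, followed by peaks at Diap1, an inhibitor of apoptosis, and RpS5a, a ribosomal protein gene. For pyr the peaks were nearest to IP3K2, CG14464 and lncRNA:CR45941. All 3 peaks most like those of stumps and htl were within 500 bp of a start, as the stumps and htl peaks are. The RpS5a and CG14464 peaks were too (90 and 76 bp), although the leading ths and pyr peaks are not. The share of all IDR peaks so placed is not given here.

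Of 23 other listed genes of the FGF pathway, 19 (82.6%) had an IDR summit by the same rule, beside 68.9% of all protein-coding genes. These shares are not matched for gene length, and the listed genes span 2507 bp (Ras85D) to 88775 bp (Sdc). Within 500 bp of a start the count was 5 of 23 (21.7%), beside 23.8%. Of the other FGF ligand and receptor pair, which act in tracheal branching, the ligand gene bnl had 7 IDR summits and the receptor gene btl none. The strongest bnl peak, in an intron 15639 bp downstream of a start, ranked 3138. The best replicate ranks of any summit in the bnl window were 2248, 4089 and 3127. At btl the best replicate ranks were 14510, 8339 and 5193. The receptor htl was thus ranked above btl in each replicate, with best ranks of 1093, 1148 and 498.

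Of the RAS/MAPK cascade, 10 of 12 genes had an IDR summit. The highest were RasGAP1, which encodes a RAS GTPase-activating protein (rank 77), csw, a tyrosine phosphatase gene (rank 105), and sty, the gene of the feedback inhibitor Sprouty (rank 114). The RasGAP1 peak lay 633 bp upstream of a RasGAP1 start. The best replicate ranks of any summit in the RasGAP1 window were 92, 81 and 75, which overlap the stumps range of 61 to 141. The peaks counted for csw and sty were 8406 and 6151 bp outside those genes, with ph-d and lncRNA:CR45737 as the nearest starts. The nuclear effectors pnt, an ETS activator, and aop, an ETS repressor, had 15 and 14 IDR summits, the most in the list, with strongest ranks of 363 and 222. Both were named after their counts were seen. These counts are not matched for gene length, and pnt and aop span 55937 and 22271 bp. The genes Sos, a RAS exchange factor, and rl, the MAP kinase, had none.

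Of the genes for heparan sulfate synthesis and proteoglycans, which serve as co-receptors of FGF, 8 of 9 had an IDR summit, and ttv, a heparan sulfate polymerase gene, had none. The highest ranks were 87 for sfl, 169 for the glypican gene dlp and 687 for botv. The peaks counted for sfl and botv stood 99 bp from a start of Bulli and 76 bp from a start of CG15111, each outside the listed gene. The dlp peak lay in its own intron, 2752 bp downstream of a start. The best replicate ranks of any summit in the dlp window were 256, 248 and 111.

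**Figure D5:**
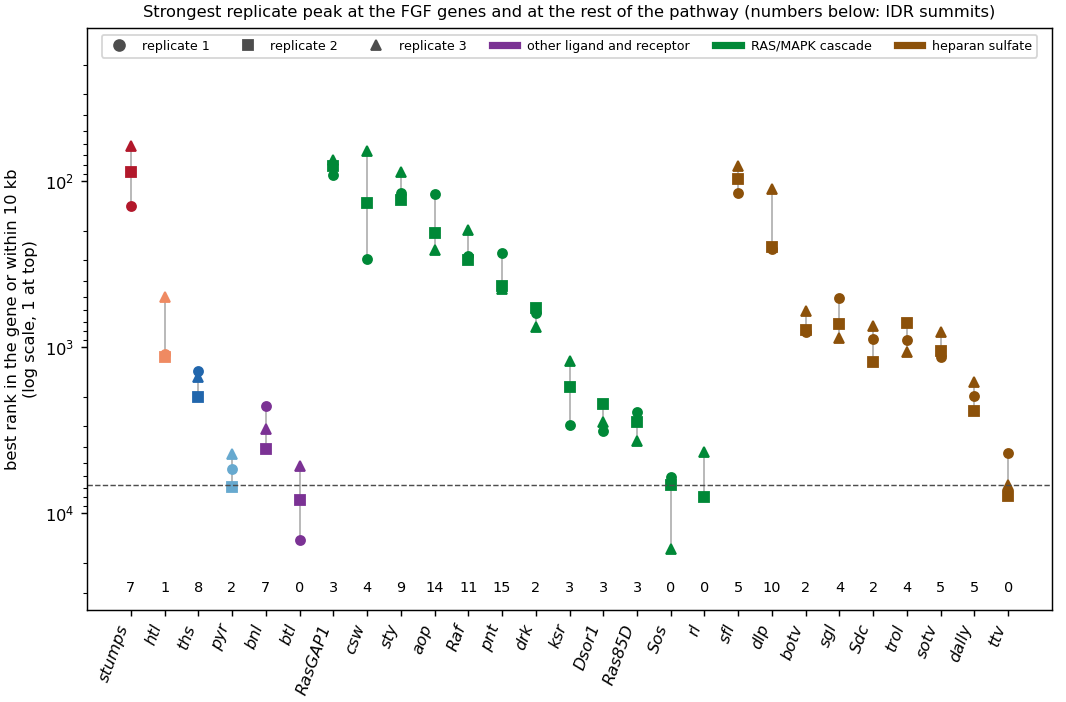
Best rank in the gene body or within 10 kb in each replicate, on a log axis with rank 1 at the top, for stumps, htl, ths and pyr at the left and the 23 other pathway genes by role. Numbers along the foot are IDR summits, and the dashed line marks rank 6706. RasGAP1 lies within the range of stumps, and btl, Sos, rl and ttv have 0 IDR summits.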

How the data were processed

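Deposited peak lists of 3 ChIP-seq replicates of dmrt11E-GFP embryos, of the pooled replicates and of the optimal IDR set were used. Per the file headers, meaning the descriptions deposited with each sample, peaks were called on each replicate and on the pool against the same control, on assembly dm6. No source used here names the caller, aligner or settings. The signal value, a score deposited by the authors, was ranked within each list. The authors' −log10 q served as an alternative ranking only. Per the labels, chromatin was sonicated to 200 to 800 bp, and the age was read from the source name.

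Genes came from Ensembl (release 115, BDGP6.54), and bases were read from RefSeq's sequence of that assembly. All peak ends lie within its arms. A promoter is 500 bp to either side of a transcription start. Coordinates count from 1. No test was run on the 4 genes, since they and the lists were chosen with earlier results of these data known. Shares over all genes or IDR peaks are descriptions. Named genes are the 4 members, the genes nearest to or holding their summits, the 3 most alike peaks per member, and the highest pathway genes (3 per role). Genes added to this after their values were seen are Sos, rl and ttv, which had 0 IDR summits, and pnt and aop, which had the most. Of the 23 listed pathway genes, 21 matched by symbol and 2 (Gap1 as RasGAP1, phl as Raf) by synonym. Counting, matching and motif search were checked on simulated data. Alternatives changed the window, merging, matching, ranking and replicates. Python 3.11.15, numpy 2.4.6, pandas 2.3.3 and matplotlib 3.10.9 were used.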

Additional observations from a re-analysis of the deposited data

How the results depend on the processing

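The htl count stayed at 1 in every alternative run. With the gene body alone, stumps had 4 IDR summits and ths 5. With a window of 20 kb, pyr had 4. Restricting the IDR set to its 3353 strongest peaks left 3 at ths, 0 at pyr and 9 over the 4 loci. Counting only summits whose nearest start is that of the gene, an alternative added after seeing the data, left 3 at stumps, 4 at ths and 10 in all. Requiring a match in the replicates other than the one left out gave 5 to 7 at stumps, 4 to 5 at ths, 0 to 1 at pyr and 10 to 13 in all. These settings keep fewer peaks by construction. The number of sites matched among the 6706 strongest peaks of every replicate was 10 in the main setting. It was 7 with summits within 50 bp, 11 within 200 bp and 9 by a reciprocal overlap of 50%. Among the 3353 strongest peaks of each replicate it was 8. It was 17 when all peaks of each list counted, and 10 to 13 with a replicate left out. Searching 25 or 100 bp to each side of the summit in place of 50 bp gave the same number of sites for each motif, except that ACATTGT was found at 1 site with 100 bp and 0 otherwise. Pathway genes with an IDR summit numbered 13 with the gene body alone, 5 at promoters and 19 without any 1 of the replicates. By −log10 q the best peak shared the top value with many others in every replicate, except at pyr in replicate 1 (rank 3942), so this ranking did not order the genes. The lists give no read depth, which leaves the precision of a rank to the spread between replicates. No paired analysis was possible because there was 1 group.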

Other observations

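Of the sites at these genes, the htl site at rank 783 was the nearest in pooled rank to the peak of rank 530 between pyr and ths. In replicate 3 the htl site was the higher (498 against 710), and in replicates 1 and 2 the intergenic site was the higher (459 and 456 against 1093 and 1148), so their order is not resolved by these 3 samples. The nearest IDR summit outside the stumps window, 16145 bp from the gene, ranked 653. The IDR peaks near the rank limit at these genes were mostly of the width most common in the pooled list, 404 bp. Of the 18 sites, 6 had this width, and they ranked between 4453 and 6446. Of all 6706 IDR peaks 36.2% had it, beside 85.2% of the pooled list. The strongest sites had widths of their own, 484 bp at stumps and 387 bp at htl.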
